A study of Mus musculus with 9 samples.

Results

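Transcripts of the cytosolic heat shock system were followed in primary mouse hepatocytes under stress of the endoplasmic reticulum (ER). The 10 genes were taken by symbol from a table of 54532 genes. They were Hsf1, Hsp90aa1, Hsp90ab1, Hspa8, Hspa1a, Hspa1b, Hsph1, Dnaja1, Dnajb1 and Hspb1. All 10 had 1 row each in the table. The unit is FPKM, fragments per kilobase of the gene model relative to library size, so levels can be set beside each other between genes.

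HSF1 is the transcription factor of the heat shock response. Under heat or other load of misfolded protein in the cytosol or nucleus it forms trimers, binds heat shock elements and drives genes of the HSP70, HSP90, HSP110, J-domain and small heat shock protein families. Unfolded protein in the ER is read by other sensors (IRE1, PERK and ATF6), which drive a separate set of chaperones, among them Hspa5 and Hsp90b1. The cytosolic genes therefore serve as a contrast to the ER response in these cells.

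The study had 3 groups of 3 libraries, all from the C57BL/6 background. WT DMSO and WT Tu came from hepatocytes of COX-2fl/fl/Alb-Cre- littermates, and CKO Tu from hepatocytes of COX-2fl/fl/Alb-Cre+ mice, in which Cre under the albumin promoter deletes COX-2 (gene Ptgs2) in hepatocytes. Both genotypes thus carry the floxed alleles. Cells were held in 1% serum for 2 h and then kept for 24 h with the vehicle DMSO or with 6 μmol/L tunicamycin (Tu), an inhibitor of N-glycosylation that causes ER stress. Ages were not given beyond the matching of littermates. There was no CKO group with DMSO, so the effect of tunicamycin within CKO cells cannot be read from these libraries. Whether the 3 libraries of a group stem from different mice is not stated, and each p-value therefore rests on the variation among libraries, which may be technical.

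The libraries held 14897358 to 16001484 assigned fragments. Ptgs2 was barely detected, with 0 to 13 fragments per library in WT DMSO, 5 to 8 in WT Tu and 1 to 2 in CKO Tu. The series text describes male mice, but Xist had 20659 to 33657 fragments in each of the 6 WT libraries and 0, 3 and 0 in CKO Tu, while 4 Y-linked genes were at 0 in WT and at 3486 to 3633 fragments in CKO Tu. Genotype and sex, as read from these transcripts, cannot be told apart in any comparison with CKO Tu. This holds for autosomal genes too. WT Tu replicate 1 stood apart from its group on the second principal component, at -36.6 against -19.6 and -19.6. All 7 hepatocyte markers were present. Their summed levels, mostly Alb, were 16004 to 17799.8 FPKM in WT DMSO, 15904 to 17396 in WT Tu and 13943 to 14825 in CKO Tu. Alb was lower in CKO Tu. Ttr, Apoa1, Hnf4a, Cps1, Serpina1a and Tat were instead higher in each CKO Tu library than in any WT library. Endothelial markers summed to 9.40 to 10.6 FPKM in WT DMSO, 3.18 to 4.69 in WT Tu and 2.77 to 3.24 in CKO Tu. Kupffer cell markers summed to 75.1 to 92.7, 96.9 to 115 and 92.7 to 107 FPKM, nearly all Cd68, with the defining markers Adgre1 and Clec4f at 0.196 FPKM or below in every library. Other macrophage markers went the other way. Lyz2 was at 1.19 to 1.66 FPKM in WT DMSO and at most 0.294 in the other groups, Mpeg1 at 0.42 to 0.742 and at most 0.28, and Csf1r at 0.259 to 0.334 and at most 0.161. Cholangiocyte markers summed to 22.7 to 25.9, 22.8 to 24.3 and 34.3 to 38.3 FPKM, mostly Spp1. Stellate cell markers summed to at most 2.18 FPKM, nearly all Reln in CKO Tu, with Col1a1 at 0 there. The 5 markers of lymphocytes and neutrophils summed to at most 0.744 FPKM. The part of these markers in the results below was not tested. In such bulk libraries fewer cells of a type and less RNA per cell cannot be told apart.

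RefSeq promoter windows on GRCm38.p6, from 250 bases before to 50 bases after a transcription start, were available for 6 of the 10 genes, Hspa1a, Hspa1b, Hspb1, Hsph1, Dnaja1 and Dnajb1. They are shown because HSF1 is known to act through heat shock elements and the ER sensor ATF6 through ER stress elements. Both strands were searched for the 2-unit heat shock elements GAANNTTC and TTCNNGAA and for 3 such units in a row, GAA and TTC in turn with 2 bases between units, which contain both 2-unit forms. The ER stress element was searched as CCAAT and CCACG with 9 bases between them. GAANNTTC was found in 5 of the 6 genes with a window, Hspa1a, Hspa1b, Hspb1, Hsph1 and Dnaja1, and in 9.04% of all 27025 genes with a window. Neither 2-unit form was found in the windows of Dnajb1, and either form was found in 17.0% of all genes. A match is a description of the letters, not a site shown to be bound.

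The inducible HSP70 genes Hspa1b (chr17:34959239-34959488, minus strand) and Hspa1a are near copies. Their 250 bases before the start differed at 3 positions, and each held 1 heat shock element, which begins 104 bases before the start and is in capitals. The small heat shock protein gene Hspb1 (chr5:135887669-135887918, plus strand) held 2, beginning 117 and 97 bases before the start. The ER chaperone gene Hsp90b1 is shown for contrast, with its upstream bases that lie outside the deposited gene (chr10:86705510-86705694, minus strand). Its capitals mark 2 ER stress elements, beginning 212 and 107 bases before the start, the latter on the opposite strand.
Hspa1b: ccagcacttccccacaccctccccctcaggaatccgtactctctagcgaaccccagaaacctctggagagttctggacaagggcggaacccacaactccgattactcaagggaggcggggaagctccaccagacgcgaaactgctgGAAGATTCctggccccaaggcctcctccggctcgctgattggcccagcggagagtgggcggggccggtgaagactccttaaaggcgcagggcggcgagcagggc
Hspb1: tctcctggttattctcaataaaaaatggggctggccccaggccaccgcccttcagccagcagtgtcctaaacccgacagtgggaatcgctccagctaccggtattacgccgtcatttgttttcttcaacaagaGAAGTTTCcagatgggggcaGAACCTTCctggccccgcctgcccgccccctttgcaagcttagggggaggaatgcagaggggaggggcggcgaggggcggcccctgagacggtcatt
Hsp90b1: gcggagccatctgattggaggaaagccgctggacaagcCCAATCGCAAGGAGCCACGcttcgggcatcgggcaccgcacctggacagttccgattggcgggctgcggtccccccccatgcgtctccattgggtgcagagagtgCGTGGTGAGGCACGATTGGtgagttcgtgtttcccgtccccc

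For sites inside the bounds of the deposited gene, 30 bases round the motif are shown, again with the motif in capitals. The Hsph1 window held the 3-unit form TTCTGGAAAGTTC, which begins 37 bases after the start (chr5:149636287-149636316, minus strand) and was found in 0.662% of all genes with a window. A separate 2-unit element of Hsph1 begins 33 bases before the start (chr5:149636351-149636380, minus strand). Hsph1 has a second RefSeq start, from which the same elements lie 16 bases after and 54 bases before. In Dnaja1 the element begins 124 bases before the first of its 3 RefSeq starts (chr4:40722333-40722362, plus strand). In Hspa5 the ER stress element begins 65 bases before the start (chr2:34772020-34772049, plus strand).
Hsph1 after the start: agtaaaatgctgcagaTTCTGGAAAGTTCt
Hsph1 before the start: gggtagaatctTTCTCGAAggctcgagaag
Dnaja1: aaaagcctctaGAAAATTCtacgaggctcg
Hspa5: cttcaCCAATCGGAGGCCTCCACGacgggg

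The ER stress element was found in 0 of the 6 cytosolic genes with a window and in 6 of 13 ER chaperone genes with one, Calr, Canx, Creld2, Dnajc3, Hsp90b1 and Hspa5, against 0.137% of all genes. Of the same 13 ER genes, 1 (Dnajc10) held a 2-unit heat shock element. Dnajb1 held neither motif in its windows.

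**Figure D1:**
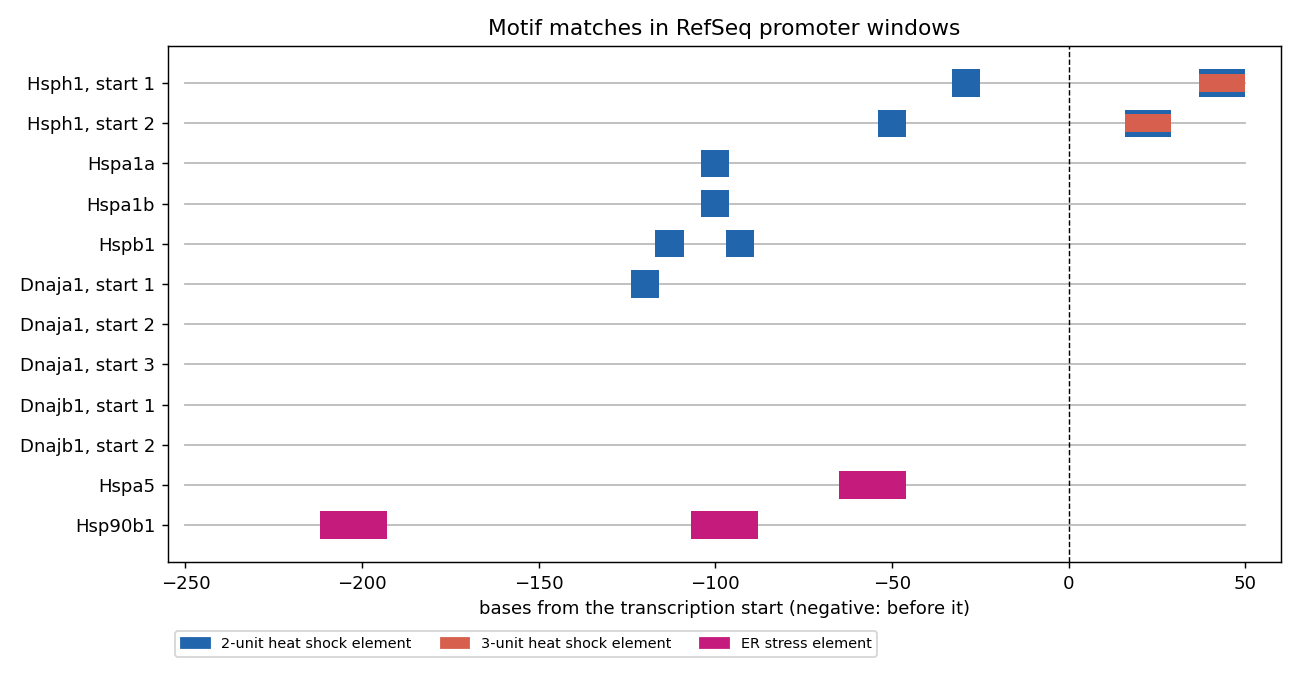
Positions of motif matches along the promoter windows, in bases from the transcription start, 1 line per RefSeq start. Blue blocks are 2-unit heat shock elements, orange blocks the 3-unit form and magenta blocks ER stress elements. Heat shock elements lie on the lines of 5 cytosolic genes and ER stress elements on those of Hspa5 and Hsp90b1.

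The levels of the 10 genes are described first, by role. Hsf1 (ENSMUSG00000022556, chromosome 15, 76477422 to 76501913, plus strand, mm10) encodes the regulator itself. Its level was 5.56, 5.08 and 5.41 FPKM in the WT DMSO libraries, 4.45, 4.66 and 4.56 in those of WT Tu, and 5.14, 5.88 and 5.54 in those of CKO Tu. All 3 WT Tu libraries lay below the other 6, and WT DMSO and CKO Tu overlapped.

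Hsp90ab1 (ENSMUSG00000023944, chromosome 17, 45567775 to 45573271, minus strand) encodes the constitutive cytosolic HSP90, which folds kinases and steroid receptors. It was the most abundant of the 10 in each group, with 879, 816 and 846 FPKM in the WT DMSO libraries, 728, 743 and 739 in those of WT Tu, and 523, 531 and 547 in those of CKO Tu. The groups did not overlap and stood in the order WT DMSO, WT Tu, CKO Tu. Hsp90aa1 (ENSMUSG00000021270, chromosome 12, 110690605 to 110702728, minus strand), the more stress-inducible HSP90, had 237, 239 and 245 FPKM in the WT DMSO libraries, 287, 232 and 237 in those of WT Tu, and 185, 181 and 182 in those of CKO Tu. WT Tu replicate 1 was the highest library for Hsp90aa1, the other WT Tu libraries lay at or just below WT DMSO, and CKO Tu lay below both groups.

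Hspa8 (ENSMUSG00000015656, chromosome 9, 40800984 to 40810087, plus strand) encodes HSC70, the constitutive HSP70 of folding, clathrin uncoating and chaperone-mediated autophagy. It had 687, 675 and 675 FPKM in the WT DMSO libraries, 609, 557 and 586 in those of WT Tu, and 445, 426 and 455 in those of CKO Tu. As for Hsp90ab1, the 3 groups did not overlap. Hspa1b (ENSMUSG00000090877, chromosome 17, 34956436 to 34959238, minus strand), a classic heat-inducible HSP70, had 5.01, 5.74 and 7.03 FPKM in the WT DMSO libraries, 3.66, 5.87 and 6.31 in those of WT Tu, and 5.49, 6.05 and 4.31 in those of CKO Tu. All 3 groups overlapped. Its near copy Hspa1a (ENSMUSG00000091971, chromosome 17, 34969190 to 34972156, minus strand) was close to undetected, at 5, 6 and 21 fragments with WT DMSO, 7, 13 and 15 with WT Tu, and 33, 52 and 24 with CKO Tu. Every CKO Tu library held more Hspa1a fragments than any WT library.

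Hsph1 (ENSMUSG00000029657, chromosome 5, 149614287 to 149636376, minus strand) encodes HSP105, an HSP110 that exchanges nucleotide on HSP70 and takes part in disaggregation. It had 26.4, 25.2 and 25.6 FPKM in the WT DMSO libraries, 32.8, 29.5 and 29.3 in those of WT Tu, and 22.8, 23.8 and 23.4 in those of CKO Tu. WT Tu was the highest group, CKO Tu the lowest, and no groups overlapped.

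The J-domain proteins deliver clients to HSP70 and start its ATPase. Dnaja1 (ENSMUSG00000028410, chromosome 4, 40722150 to 40737149, plus strand) had 27.6, 25.8 and 26.2 FPKM in the WT DMSO libraries, 20.6, 25.2 and 23.1 in those of WT Tu, and 19.5, 19.4 and 20.6 in those of CKO Tu. Its WT Tu libraries lay below WT DMSO and, through replicate 1, met the CKO Tu range. Dnajb1 (ENSMUSG00000005483, chromosome 8, 83608193 to 83612653, plus strand), which encodes HSP40, had 16.8, 15.5 and 16.9 FPKM in the WT DMSO libraries, 14.2, 14.8 and 13.9 in those of WT Tu, and 17.3, 18.8 and 16.9 in those of CKO Tu. The WT Tu libraries were the 3 lowest.

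Hspb1 (ENSMUSG00000004951, chromosome 5, 135887919 to 135889563, plus strand) encodes the small heat shock protein HSP25 (HSP27 in human), an ATP-independent holdase that also binds the actin cytoskeleton. It had 70.9, 69.0 and 66.9 FPKM in the WT DMSO libraries, 31.6, 43.1 and 39.4 in those of WT Tu, and 65.0, 74.6 and 71.4 in those of CKO Tu. WT Tu was far below the other groups, which overlapped.

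**Figure D2:**
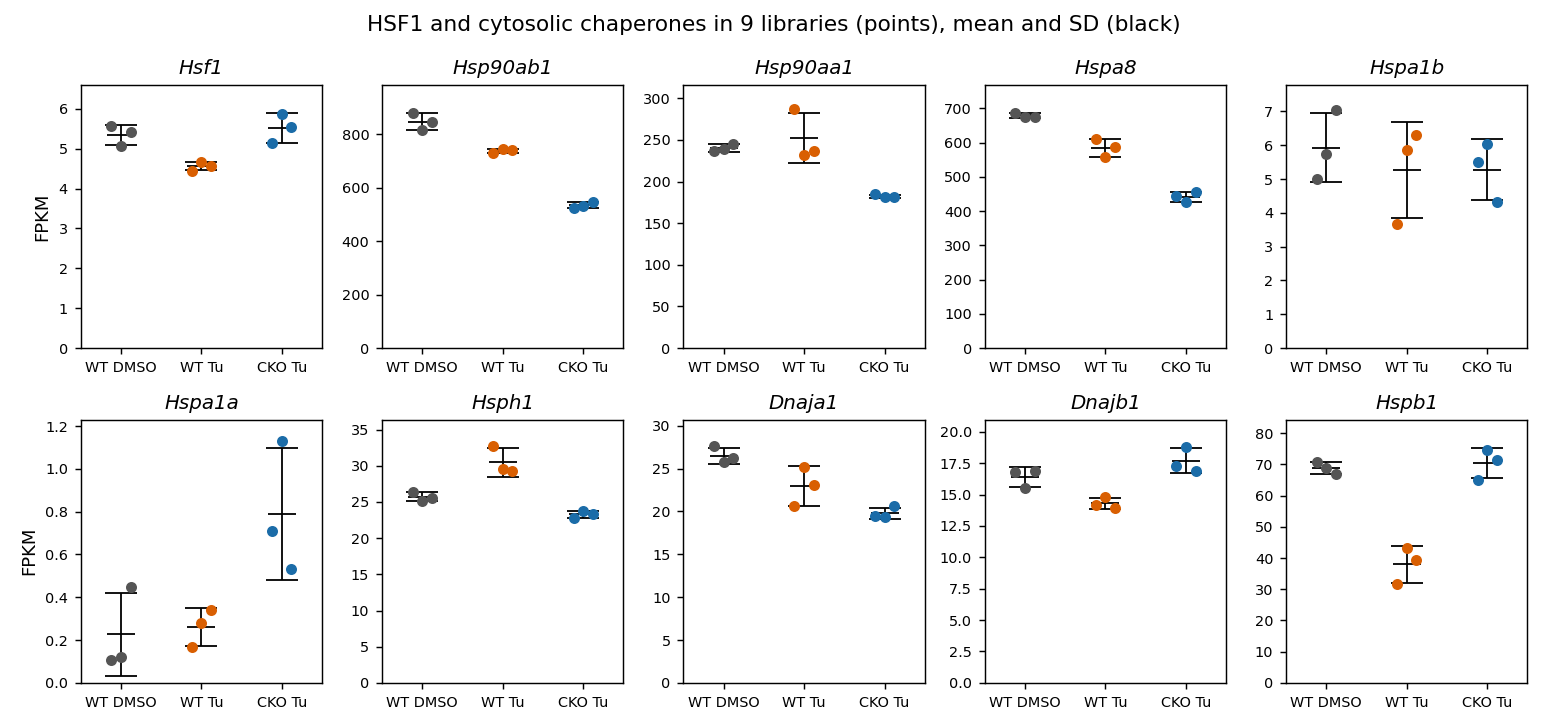
FPKM of the 10 genes in each library (points, 3 per group), with the group mean and SD in black and each vertical axis starting at 0. Hsp90ab1 and Hspa8 step down from WT DMSO to WT Tu to CKO Tu, and Hspb1 is low in WT Tu alone, at 31.6 to 43.1 FPKM.

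The order of mean levels began with Hsp90ab1, Hspa8, Hsp90aa1 and Hspb1 in each group. Hsp90ab1 and Hspa8 together made up 79.4% to 80.1% of the summed FPKM of the 10 genes in WT DMSO, 77.2% to 78.9% in WT Tu and 74.3% to 75.5% in CKO Tu. Some neighbours in the order overlapped. They were Dnaja1 with Hsph1 and Hspa1b with Hsf1 in WT DMSO, Hspb1 with Hsph1 and Hspa1b with Hsf1 in WT Tu, and Hsf1 with Hspa1b in CKO Tu. The 10 genes summed to 1955, 1877 and 1915 FPKM in the WT DMSO libraries, 1731, 1655 and 1679 in those of WT Tu, and 1289, 1287 and 1326 in those of CKO Tu. Because 2 genes dominate this sum, it follows Hsp90ab1 and Hspa8.

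The first comparison, of WT Tu against WT DMSO, bears on the cytosolic chaperones of control hepatocytes under ER stress. No broad rise was seen. Hspb1 fell to 0.552 of its vehicle level, Hsp90ab1 and Hspa8 fell slightly, and Hsph1 rose slightly. The inducible HSP70 gene Hspa1b stayed between 3.66 and 7.03 FPKM in all 6 libraries. Of the 9 genes that passed the filter (3 or more libraries at FPKM of 1 or above), 1 was higher, 5 were lower and 3 did not pass (limma adjusted p below 0.05). Over all 11858 genes tested in this comparison 33.6% were called, 17.7% higher and 15.9% lower. The median change of the 9 genes was -0.19 on the log2 scale, beside 0 for all genes tested.

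Hspb1, the small heat shock protein, went from 68.9 ± 2.02 to 38.0 ± 5.90 FPKM (SD, n = 3), a log2 change of -0.85 ± 0.11 (SE; limma adjusted p = 0.0004). The lowest WT Tu library for Hspb1 was replicate 1, the library that stood apart. Over 21 alternative settings, those without that library included, its change ranged from -0.98 to -0.59 and passed in 21. Hsp90ab1 went from 847 ± 31.3 to 737 ± 7.79 FPKM (SD, n = 3), a change of -0.20 ± 0.05 (SE; limma adjusted p = 0.013). Hspa8 went from 679 ± 6.73 to 584 ± 26.2 FPKM (SD, n = 3), a change of -0.22 ± 0.05 (SE; limma adjusted p = 0.012). Both kept their direction in the 21 settings, and without a filter on low values neither passed (limma adjusted p = 0.097 and 0.066). Hsp90ab1 was also at the threshold, at 0.05, in a fit to the 6 libraries compared.

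Hsph1, the HSP110, went from 25.7 ± 0.619 to 30.5 ± 1.98 FPKM (SD, n = 3), a change of 0.24 ± 0.06 (SE; limma adjusted p = 0.012). It was the 1 gene of the 9 that rose, and the 3 WT Tu libraries lay above the 3 of WT DMSO. That call was lost with scaling to total fragments (limma adjusted p = 0.13) and with quantile normalization (0.057). Scaling to total fragments moved the median of all genes by -0.108 on the log2 scale. Under that scaling Hsph1 stood at 0.11, and the other 8 genes were at or below -0.07.

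Hsf1 and Dnajb1 lay at the edge of the test. Hsf1 went from 5.35 ± 0.247 to 4.56 ± 0.104 FPKM (SD, n = 3), a change of -0.19 ± 0.06 (SE; limma adjusted p = 0.048). Of the 21 alternative settings, it passed in 5 that did not leave 1 library out. It also passed, narrowly, without CKO Tu replicate 1 (limma adjusted p = 0.05 as rounded). The call was lost without any 1 of the 6 libraries compared (limma adjusted p 0.06 to 0.12) and without CKO Tu replicate 2 or 3 (0.056 and 0.07). With the trend on GC content removed, Hsf1 was at -0.04 (0.69). Dnajb1 changed by -0.18 ± 0.06 (SE; limma adjusted p = 0.045) and passed in 8 of 21. It was lost without WT DMSO replicate 1 or 3 (0.11 and 0.14) without WT Tu replicate 1, 2 or 3 (0.067, 0.055 and 0.11), and without CKO Tu replicate 1 or 3 (0.065 and 0.056), which enter the shared estimate of spread. Dnaja1 was at -0.20 ± 0.07 (SE; limma adjusted p = 0.061) and did not pass, although its groups did not overlap. It passed in 6 of 21 settings, among them without WT Tu replicate 2 (limma adjusted p = 0.021). The others were upper-quartile scaling (0.021), quantile normalization (0.019), scaling to total fragments (0.013), voom (0.027) and removal of the GC trend (0.025).

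Hsp90aa1 and Hspa1b did not pass. Hsp90aa1 was at 0.06 ± 0.08 (SE; limma adjusted p = 0.58) and took a negative sign with scaling to total fragments (-0.07), without WT Tu replicate 1 (-0.03), with quantile normalization (-0.03), with library weights (-0.02) and with the GC trend removed (-0.05). Hspa1b was at -0.16 ± 0.19 (SE; limma adjusted p = 0.55), the widest error of the 9. Hspa1a, below the filter, had 32 fragments over the WT DMSO group and 35 over WT Tu, a ratio of 1.07 after scaling to library totals (exact permutation p = 0.8, adjusted 0.8 over the 6 tests of Hspa1a alone or summed with Hspa1b). Its level could not show a small change at this depth. Groups did not overlap in 1 gene higher and 6 lower of the 9, beside 46.7% of all genes tested, 23.9% higher and 22.8% lower.

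The second comparison, of CKO Tu against WT Tu, holds tunicamycin fixed and changes the genotype, and with it the sex read from Xist and Y-linked genes. The 3 most abundant cytosolic chaperones, Hsp90ab1, Hspa8 and Hsp90aa1, were lower in CKO Tu, as was the less abundant Hsph1. These 4 genes were at 0.724 to 0.764 of the mean FPKM in WT Tu. Hspb1 was 1.85 times as high in CKO Tu, and Dnajb1 and Hsf1 were also higher. Of the 9 genes tested, 3 were higher, 4 lower and 2 did not pass, beside 38.3% of all genes called in this comparison, 18.7% higher and 19.6% lower. The median change of the 9 was -0.20 on the log2 scale, beside 0 for all genes.

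Hsp90ab1 went from 737 ± 7.79 to 534 ± 12 FPKM (SD, n = 3), a change of -0.46 ± 0.05 (SE; limma adjusted p = 0.00018). Hsp90aa1 went from 252 ± 30.1 to 182 ± 2.2 FPKM (SD, n = 3), a change of -0.46 ± 0.08 (SE; limma adjusted p = 0.0019). The value of Hsp90aa1 depends in part on WT Tu replicate 1, without which it was -0.36 (0.00022), beside -0.47 (0.00016) for Hsp90ab1. Hspa8, the constitutive HSP70, changed by -0.40 ± 0.05 (SE; limma adjusted p = 0.00053). Hsph1, the HSP110, changed by -0.37 ± 0.06 (SE; limma adjusted p = 0.0011). All 4 passed in 21 of 21 alternative settings.

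Hspb1 changed by 0.88 ± 0.11 (SE; limma adjusted p = 0.00033), from 38.0 ± 5.90 to 70.4 ± 4.90 FPKM (SD, n = 3). Dnajb1, the HSP40 gene, changed by 0.29 ± 0.06 (SE; limma adjusted p = 0.006). Hspb1 and Dnajb1 passed in 21 of 21 settings. Hsf1 changed by 0.23 ± 0.06 (SE; limma adjusted p = 0.021) and passed in 17. It was lost with the GC trend removed (0.063), without WT Tu replicate 3 (0.051) and without CKO Tu replicate 2 or 3 (0.086 and 0.06).

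Dnaja1 was at -0.20 ± 0.07 (SE; limma adjusted p = 0.062) and did not pass. Without WT Tu replicate 1, which lies in the CKO Tu range, it passed at -0.27 (0.0058), as it did with upper-quartile scaling (0.037), quantile normalization (0.048), library weights (0.0031) and voom (0.038), 5 of 21 settings in all. Hspa1b was at 0.02 ± 0.19 (SE; limma adjusted p = 0.95). Hspa1a had 109 fragments over CKO Tu against 35 over WT Tu, a ratio of 3.12 after the same scaling (exact permutation p = 0.1, adjusted 0.3, where groups of 3 cannot give less than 0.1). Summed over Hspa1a and Hspa1b, the fragments were 797 and 701, a ratio of 1.14 (exact permutation p = 0.6, adjusted 0.8), with overlapping groups. Groups did not overlap in 3 higher and 4 lower of the 9 genes, beside 51.2% of all genes, 25% higher and 26.2% lower.

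Hepatocyte markers also moved between the same libraries. Tat was at 94.7 to 123 FPKM in CKO Tu and 16.1 to 22.2 in WT Tu, Apoa1 at 1272 to 1432 and 311 to 446, and Hnf4a at 18.3 to 20.7 and 5.56 to 7.05. Alb was at 10065 to 10603 FPKM in CKO Tu and 13505 to 14992 in WT Tu. Their part in the lower HSP90 and HSP70 levels was not tested.

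The third comparison, CKO Tu with WT DMSO, differs in genotype, in the sex read from transcripts and in treatment at once. It shares its samples with the other comparisons, so its values are given beside them. Hsp90ab1 was at -0.67 ± 0.05 (SE; limma adjusted p = 9.2e-06), Hspa8 at -0.62 ± 0.05 (2.1e-05), Hsp90aa1 at -0.40 ± 0.08 (0.0026) and Dnaja1 at -0.40 ± 0.07 (0.0018). These 4 were lower, 0 were higher and 5 did not pass, beside 49.5% of all genes called, 25.3% higher and 24.2% lower. Hspb1 was at 0.03 ± 0.11 (SE; limma adjusted p = 0.85), Hsf1 at 0.04 ± 0.06 (0.66) and Dnajb1 at 0.10 ± 0.06 (0.19). Groups did not overlap in 1 higher and 5 lower of the 9, beside 63% of all genes, 31.8% higher and 31.3% lower. Hspb1, Hsf1 and Dnajb1, which had differed between CKO Tu and WT Tu, did not pass in this comparison, which does not show that the levels were alike. Hsph1 was at -0.14 ± 0.06 (SE; limma adjusted p = 0.075) and passed in 7 of 21 settings, among them without WT Tu replicate 1 (0.015). Hspa1b was at -0.14 ± 0.19 (SE; limma adjusted p = 0.57).

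**Figure D3:**
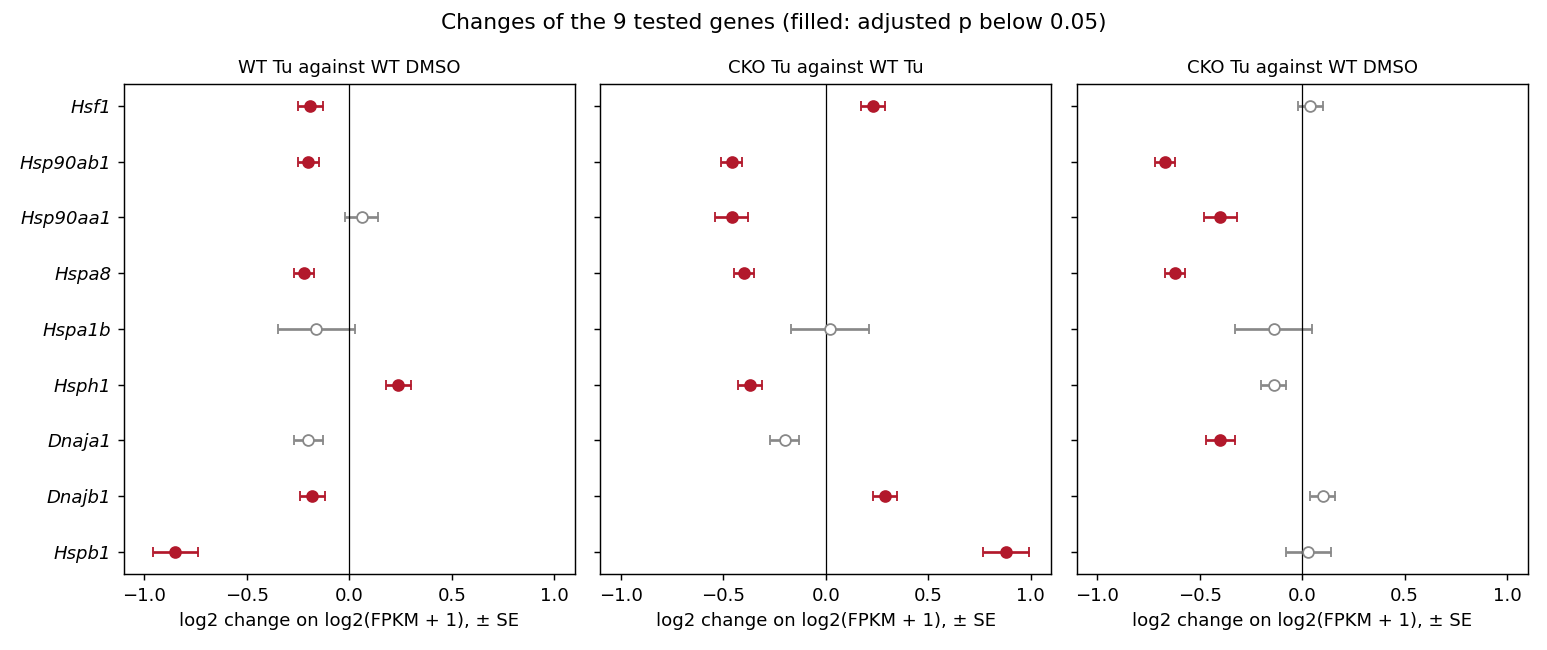
Log2 changes with SE for the 9 tested genes in the 3 comparisons, on the log2(FPKM + 1) scale, with filled points for an adjusted p below 0.05. Hspb1 lies at -0.85 in the left panel and 0.88 in the middle panel, and Hsp90ab1, Hspa8 and Hsp90aa1 lie below 0 in the middle and right panels.

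Relatives of the same families in the ER gave the scale of the ER response in the same libraries. Hspa5, the ER HSP70 known as BiP, had 561, 578 and 589.8 FPKM in the WT DMSO libraries, 5744, 4968 and 5224 in those of WT Tu, and 4753, 4795 and 5036 in those of CKO Tu. In WT DMSO, Hspa5 lay below Hspa8, at 0.817 to 0.873 of it. In WT Tu it was 8.92 to 9.43 times Hspa8, and in CKO Tu 10.7 to 11.3 times. Hspa5 rose by 3.20 ± 0.07 with tunicamycin (SE; limma adjusted p = 1.8e-08), where Hspa8 was at -0.22.

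ER members of the other families also rose far more than their cytosolic relatives. Hsp90b1 likewise went from below Hsp90ab1 and Hsp90aa1 to above both, whereas Dnajb9 was above Dnajb1 already in WT DMSO. Hsp90b1, the ER HSP90 known as GRP94, rose by 4.54 ± 0.13 (SE), beside -0.20 for Hsp90ab1 and 0.06 for Hsp90aa1. Hyou1, the ER HSP110, rose by 3.56 ± 0.11 (SE), beside 0.24 for Hsph1. Dnajb9 and Dnajb11, J-domain partners of BiP, rose by 2.43 ± 0.10 and 2.35 ± 0.08 (SE), beside -0.18 for Dnajb1. Of 16 ER chaperones tested, 15 rose, 0 fell and 1 did not pass, with a median of 3.02, and a median of -0.19 stood for the 9 cytosolic genes.

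The ratio of a cytosolic gene to its ER relative was compared in 8 pairs, as the log2 ratio of FPKM + 1. Some pairs share a gene. With the ER relatives up as given above, lower ratios under tunicamycin restate that rise and are no separate support. In WT Tu against WT DMSO the ratio was lower without overlap in 8 of 8 pairs, each with an exact two-sided permutation p = 0.1, the lowest value reachable with groups of 3, and 0.114 after adjustment over 24 tests. The log2 ratio of Hsp90ab1 to Hsp90b1 was 3.48 ± 0.15 in WT DMSO, -1.26 ± 0.25 in WT Tu and -1.50 ± 0.07 in CKO Tu (SD, n = 3). The log2 ratio of Hspa8 to Hspa5 was 0.24 ± 0.05, -3.18 ± 0.05 and -3.46 ± 0.04, and that of Hsph1 to Hyou1 was 0.20 ± 0.21, -3.12 ± 0.07 and -3.67 ± 0.06. In CKO Tu against WT Tu, 3 pairs were lower and 2 higher without overlap, and 3 overlapped. The higher pairs were Hspa1a to Hspa5 and Dnajb1 to Dnajb9. The ratio with Hspa1a is set mostly by the added 1, and as plain FPKM it was 2.89e-05 to 6.56e-05 in WT Tu and 0.000105 to 0.000236 in CKO Tu. That of Dnajb1 to Dnajb9 was higher by 0.75, where Dnajb9 itself fell by 0.47 ± 0.10 (SE; limma adjusted p = 0.0065).

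Mitochondrial relatives moved by amounts closer to those of the cytosolic genes. Hspa9, the mitochondrial HSP70, rose by 0.26 ± 0.04 in WT Tu (SE; limma adjusted p = 0.0023) a call lost with the GC trend removed (0.053), and was at -0.30 ± 0.04 in CKO Tu against WT Tu (0.001). Trap1, the mitochondrial HSP90, was at -0.14 ± 0.05 (0.076) and -0.33 ± 0.05 (0.0018) in these comparisons. Dnaja3, a mitochondrial J-domain protein, was at 0.17 ± 0.05 (0.028) and -0.07 (0.29), and the former passed in 11 of 21 settings, with calls lost without any 1 WT DMSO library (0.056 to 0.087) and without WT Tu replicate 2 or 3 (0.065 and 0.072).

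**Figure D4:**
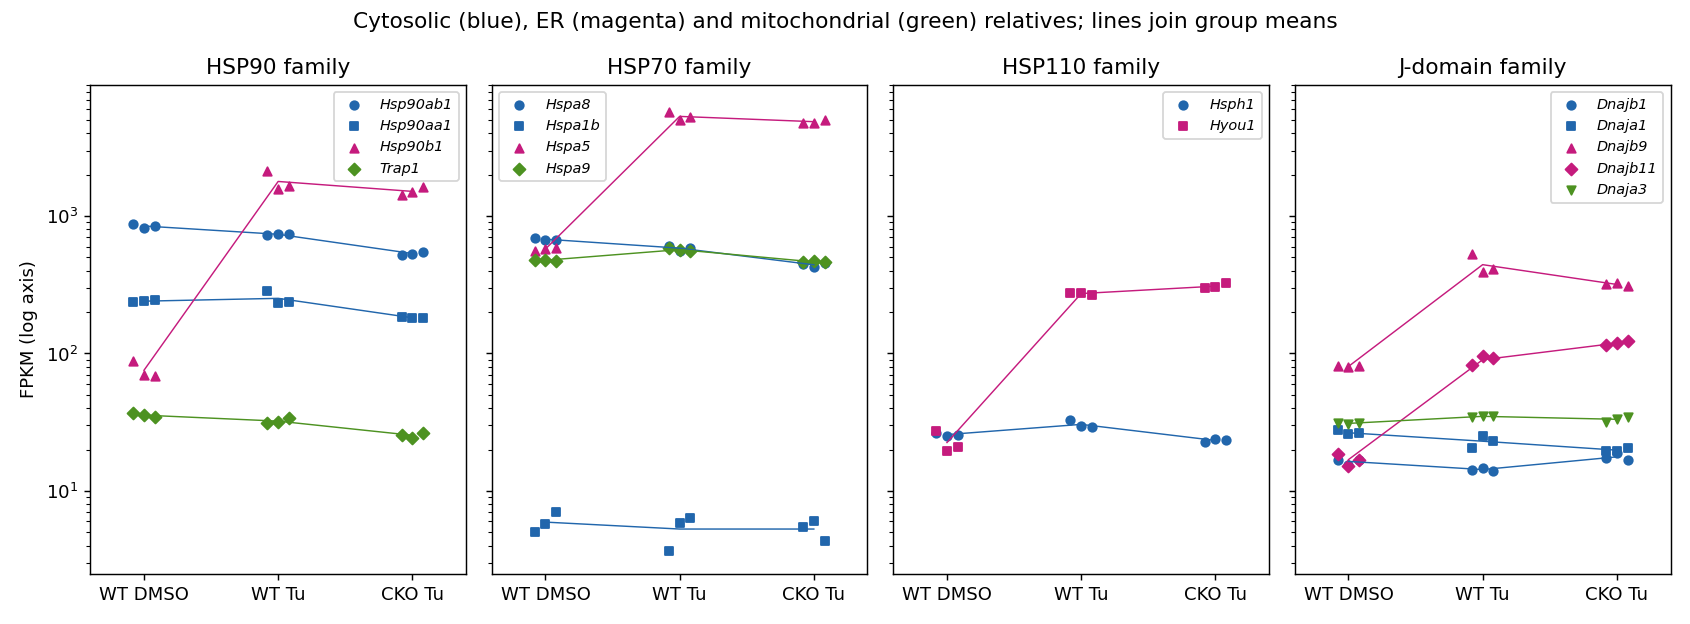
FPKM on a log axis for cytosolic (blue), ER (magenta) and mitochondrial (green) relatives in 4 families, 3 libraries per group, with lines through the group means. Hsp90b1 passes above Hsp90ab1, and Hspa5 above Hspa8, between WT DMSO and WT Tu.

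Partners of the same machinery were read from lists, of which the counts stand beside those of all genes given above. Of 17 HSP90 cochaperones tested, 4 were higher, 2 lower and 11 did not pass in WT Tu against WT DMSO (median -0.02). The 4 higher genes rose by 0.18 to 0.26. The largest of these rises was that of Cdc37l1, at 0.26 ± 0.07 (SE; limma adjusted p = 0.024), which passed in 14 of 21 settings. The 2 lower genes were Fkbp4 and Ahsa1. Fkbp4, an HSP90-binding immunophilin of steroid receptors, fell by 0.51 ± 0.11 (SE; limma adjusted p = 0.0066) and passed in 21 of 21 settings. Ahsa1, which speeds the HSP90 ATPase, fell by 0.35 ± 0.10 (0.023) and passed in 16 of 21 settings. Among the settings that lost the call were those without WT DMSO replicate 1 or 3 (0.074 and 0.057). In CKO Tu against WT Tu 1 was higher, 6 were lower and 10 did not pass (median -0.09). Chordc1, another HSP90-binding cochaperone, fell by 0.50 ± 0.05 (0.00019), and Unc45a, a myosin and HSP90 cochaperone, was higher by 0.64 ± 0.07 (0.00029).

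Of 20 HSP70, HSP110 and J-domain partners tested, 3 were higher, 2 lower and 15 did not pass under tunicamycin in WT cells (median -0.02). Bag3, an HSP70 cochaperone of selective autophagy and itself a known HSF1 target, had 49.1, 44.8 and 44.3 FPKM in the WT DMSO libraries, 75.5, 84.2 and 86.2 in those of WT Tu, and 63.6, 67.9 and 62.8 in those of CKO Tu. The groups did not overlap, and WT Tu was highest. Bag3 rose by 0.82 ± 0.07 (SE; limma adjusted p = 3.9e-05) and was at -0.33 in CKO Tu against WT Tu (0.005), and it passed both in 21 of 21 settings. Dnajb2 fell by 0.76 ± 0.11 (0.0012). In CKO Tu against WT Tu 4 were higher, 6 lower and 10 did not pass (median 0.05). Hspbp1, a nucleotide exchange factor of HSP70, fell by 0.63 ± 0.07 (0.00018), and Bag2 was higher by 0.77 ± 0.16 (0.0059).

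Of 5 other small heat shock proteins tested, 1 was higher, 0 lower and 4 did not pass in WT Tu against WT DMSO. Hspb8, the partner of Bag3, rose by 0.22 ± 0.05 (SE; limma adjusted p = 0.0062), a call lost with quantile normalization (0.2) and with scaling to total fragments (0.14). Cryab, αB-crystallin, was at -0.40 in WT Tu (0.11) and rose by 1.19 ± 0.17 in CKO Tu against WT Tu (0.00084). With Hspb6, at 0.44 ± 0.08 (0.0026), it made 2 higher, while Hspb8 fell by 0.25 ± 0.05 (0.0035) and 2 did not pass. Hspb6 was at -0.21 in WT Tu against WT DMSO (limma adjusted p = 0.067). Hspb1, Cryab and Hspb6 thus had the same pair of signs, and of these only Hspb1 passed in both comparisons. Cryab was low, at 20 to 30 fragments per library in WT Tu.

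The cytosolic chaperonin TRiC and its partner prefoldin fold actin and tubulin. Of their 14 genes tested, 1 was higher, 0 lower and 13 did not pass in WT Tu against WT DMSO, the 1 being Vbp1, at 0.39 ± 0.09 (SE; limma adjusted p = 0.0087). In CKO Tu against WT Tu 0 were higher, 6 lower and 8 did not pass (median -0.23). The 6 were the TRiC subunits Tcp1, Cct2, Cct3, Cct4, Cct5 and Cct7, from -0.40 ± 0.09 for Tcp1 (0.0084) to -0.22 for Cct3. Of the HSF family and HSF-binding genes, 3 of 6 were tested, at -0.18 to 0.14 in WT Tu against WT DMSO, where no call was made in limma. In CKO Tu against WT Tu 1 was higher, 1 lower and 1 did not pass. Hsf4, a member of the HSF family, was at 0.23 ± 0.07 (0.026), a call lost without WT Tu replicate 3 (0.082), without CKO Tu replicate 1 or 2 (0.09 and 0.088), with voom (0.083) and with the GC trend removed (0.68). Hsbp1, which binds HSF1, was at -0.23 ± 0.07 (0.029) and passed in 13 of 21 settings, with calls lost without any 1 WT Tu library (0.051 to 0.059) and without CKO Tu replicate 1 (0.098).

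Of 8 other known HSF1-driven genes tested, 3 were higher, 1 lower and 4 did not pass in WT Tu against WT DMSO (median 0.20). In CKO Tu against WT Tu 1 was higher, 4 lower and 3 did not pass (median -0.38). Among the lower genes were Hspe1 and Hspd1, the mitochondrial chaperonin pair, at -0.67 and -0.51, and Zfand2a, at -0.64. Hmox1, heme oxygenase 1, rose by 1.46 ± 0.17 (SE; limma adjusted p = 0.00025), and it is also a target of other stress factors.

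**Figure D5:**
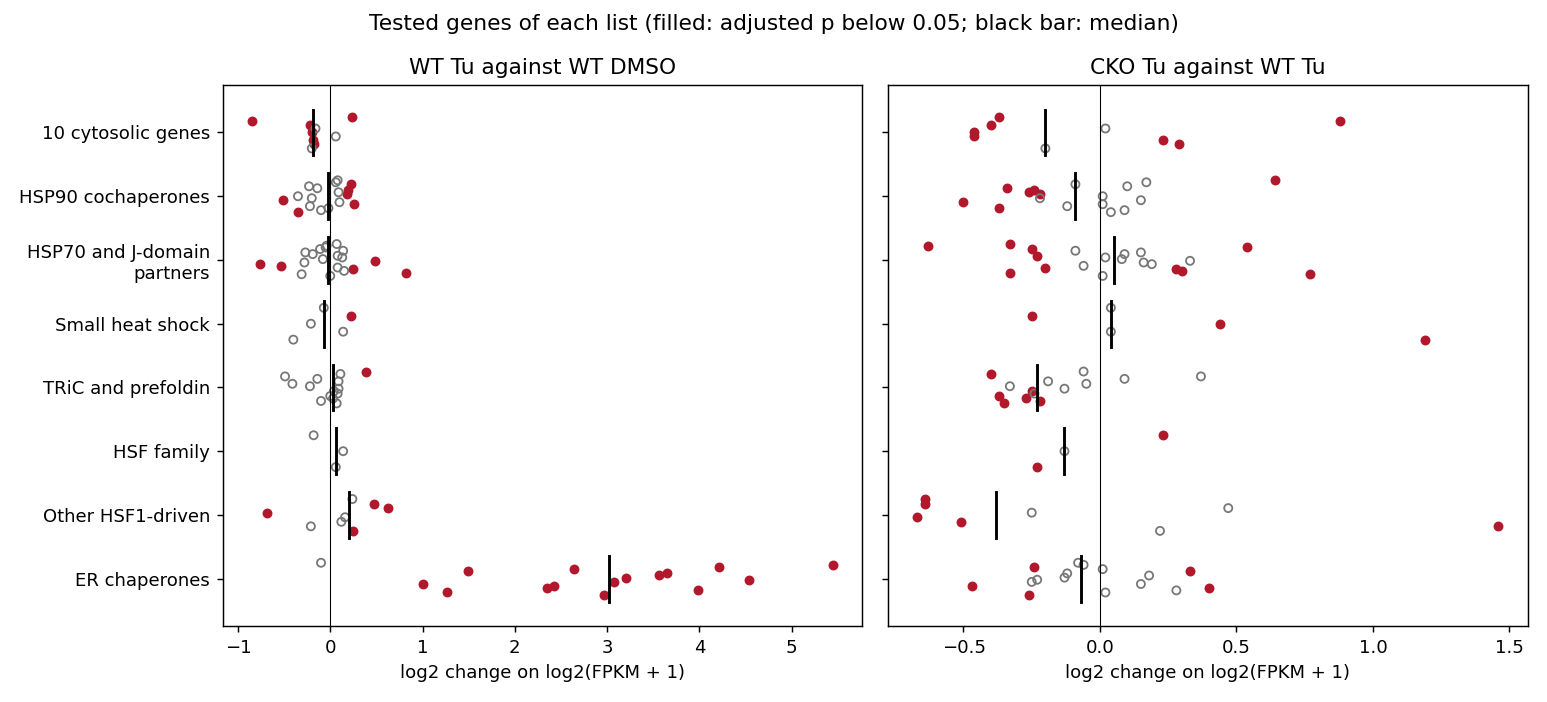
Log2 changes of the tested genes of each list in 2 comparisons, each on its own axis, with filled points for an adjusted p below 0.05 and a black bar at the median. The ER chaperones lie apart in the left panel, with a median of 3.02, where the medians of the other lists lie between -0.19 and 0.20. In the right panel the medians run from -0.38 for the other HSF1-driven genes to 0.05 for the HSP70 and J-domain partners.

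Genes with the pattern most like that of the abundant chaperones were taken by the root mean square difference of centred log2(FPKM + 1) over the 9 libraries, as a description. The nearest to Hsp90ab1 were Bop1 (0.041), Tubb4b (0.0492) and Snx18 (0.0493), and Hspa8 lay at 0.0541 from it. The nearest to Hspa8 were Ctsb (0.0443), Tmx2 (0.0478) and Purb (0.0492). The nearest to Hsp90aa1 were B2m (0.0222), Ttc1 (0.0398) and Ppfibp1 (0.0427). Among the 9 genes themselves, Hsf1 and Dnajb1 lay 0.0443 apart.

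Near copies limit some of these values, because the handling of fragments that map to several places and the strand setting are not given in the sources used here. Of the 100-base windows of the gene models, 56.5% in Hspa1a and 49.9% in Hspa1b are shared with GENCODE transcripts of other genes, 44% in Hspb1, 38% in Hsp90aa1, 28.5% in Hspa8, 16.6% in Dnaja1, and 0 in Hsf1, Hsph1, Hsp90ab1 and Dnajb1. The processed copies named in the table held few fragments, at most 7 for Hsp25-ps1 beside Hspb1 and at most 1.58% of Hsp90aa1 for Gm12346. Gm15542 held up to 9.38% of the Dnaja1 fragments. Dnaja1 also overlaps the antisense gene Smu1 by 608 bases, so part of its fragments is uncertain. The split of fragments between Hspa1a and Hspa1b is uncertain because they share sequence. Their sum does not depend on the split, but it would lack any shared fragments that were dropped.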

How the data were processed

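RNA from 9 hepatocyte libraries were processed with HISAT2 2.2.1 and featureCounts 1.5.0-p3 on build mm10, per the submitters' processing notes, and the authors deposited FPKM per gene. The annotation release and the strand and multi-mapping settings are not given in the sources used here. Multiplied by gene length, FPKM came in whole steps within each library (tolerance 0.001 fragments, 100% of values), from which fragments per gene were recovered. Total fragments and the size used for FPKM differed by factors of 0.948 to 1.07. Genes reaching FPKM of 1 in 3 or more libraries were fitted as log2(FPKM + 1) in limma 3.58.1 (R 4.3.3), with a mean per group over all 9 libraries and an intensity trend. P-values were two-sided and adjusted by Benjamini-Hochberg over the 11858 genes tested, and called below 0.05. Adding 1 before the log shrinks the changes of low genes. Ratios and fragments of single genes were compared by exact permutation tests (scipy 1.17.1). Alternatives were another pseudocount, filters, scalings, the replicate block, library weights, voom on the recovered fragments, removal of a GC trend, and each library left out. Summing Hspa1a with Hspa1b was added after seeing the data. The fit was tested on simulated data. Members and lists were chosen with earlier results of these data known. Named genes were the 10 members, their relatives, and from each list the genes with the largest changes, up to 4 in WT Tu against WT DMSO and up to 2 in CKO Tu against WT Tu. Genes named to complete a count, such as the TRiC subunits, Zfand2a and Hspd1, fall outside that rule in part and were chosen after their values were seen. 1 list member is not reported here.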

Additional observations from a re-analysis of the deposited data

How the results depend on the processing

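Of the 9 tested genes, 6 passed in WT Tu against WT DMSO, 2 with no filter on low values and 3 in a fit to only the groups compared. With 1 library left out in turn the number was 4 to 5 there, 6 to 8 in CKO Tu against WT Tu and 4 to 5 in CKO Tu against WT DMSO. Over the other lists the number called in WT Tu against WT DMSO was 21 to 32 with 1 library left out, and it was 21 without WT DMSO replicate 3. Hspbp1 reversed to 0.18 in WT Tu against WT DMSO with the GC trend removed (limma adjusted p = 0.034), and Hspa5 reversed to 0.27 in CKO Tu against WT Tu with quantile normalization (limma adjusted p = 0.0029). The cause was not tested. Scaling to total fragments called 1430 genes higher and 3108 lower in WT Tu against WT DMSO (31.5% higher), upper-quartile scaling 42.3% higher, and the deposited scaling 52.7%. Under those 2 scalings 0 and 1 of the 9 genes were higher and 6 were lower. With the replicate number as a block, 4, 7 and 4 of the 9 genes passed in the 3 comparisons. The block ended the calls of Hsf1 (limma adjusted p = 0.084) and Dnajb1 (0.079) in WT Tu against WT DMSO. Same-numbered libraries did not deviate together, with correlations from -0.0967 to 0.0208, so the numbers are not taken as pairs. Depth limits Hspa1a, at 5 to 52 fragments per library.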

Other observations

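Lists of partners in CKO Tu against WT DMSO, which differ in genotype, treatment and the sex read from transcripts, were as follows. Of 17 HSP90 cochaperones, 2 were higher, 8 lower and 7 did not pass, with Unc45a at 0.72 ± 0.07 (SE; limma adjusted p = 6.6e-05) and Chordc1 at -0.39 ± 0.05 (0.00031). Of 20 HSP70, HSP110 and J-domain partners, 6 were higher, 6 lower and 8 did not pass, with Bag3 at 0.48 ± 0.07 (0.00039) and Hspbp1 at -0.68 ± 0.07 (5.2e-05). Of 14 TRiC and prefoldin genes, 1 was higher, 7 were lower and 6 did not pass. Of 5 other small heat shock proteins, 2 were higher, 0 lower and 3 did not pass, with Cryab at 0.79 ± 0.17 (0.0044). Hmox1, heme oxygenase 1, was at 1.26 ± 0.17 (0.00028). ER chaperones were higher in 15 of 16, with a median of 2.79 beside -0.14 for the 9 cytosolic genes, and 49.5% of all genes were called.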
